A study of Homo sapiens with 4 samples.

Results

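ZIP proteins, encoded by the SLC39 genes, carry zinc into the cytosol from outside the cell or from intracellular compartments. They work against the ZnT exporters of the SLC30 family, and some of them also admit manganese, iron and the toxic metal cadmium. ZIP8 and ZIP14, encoded by SLC39A8 and SLC39A14, are the members best known as routes for cadmium. Here 10 ZIP genes were followed out of 61541 genes in a table of RNA-seq read counts. They were found by matching the Ensembl identifiers of the table to a fixed list of symbols (SLC39A1, SLC39A3, SLC39A4, SLC39A6, SLC39A7, SLC39A8, SLC39A9, SLC39A10, SLC39A13 and SLC39A14), and all 10 were present. The table held 14 SLC39 genes in all.

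The libraries came from MDA-MB-231, an established human breast cancer cell line. The cadmium group had been serially passaged in medium with CdSO4, at a final 10 µM, which left a resistant line. The control group was the parental line passaged in normal medium. Each group had 2 libraries (n = 2). Library names follow the count table, so the controls are control 2 and control 3 and the treated libraries are cadmium 1 and cadmium 2. The treated cells are 1 line kept under 1 regime, and no source used here says that the libraries came from independent selections. P-values therefore measure only the spread between these libraries. Because RNA came from whole cultures, a gene expressed in fewer cells and a gene with less RNA per cell cannot be told apart.

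Depth was similar, with 51934729 to 61916007 reads assigned to genes per library. The controls differed from each other more than the cadmium libraries did. Over the 12924 genes whose normalized count averaged 100 or more, the median absolute log2 ratio was 0.39 within the control pair and 0.11 within the cadmium pair. Markers of the line were abundant in every library, for instance VIM (vimentin) at 39062 to 51044 normalized counts, and the hormone receptor genes ESR1 and PGR stayed at or below 29.6. The epithelial gene EPCAM, listed as low in this line, reached 662 to 2410 normalized counts. CDH1, the gene of E-cadherin from the same list, was at 107 in control 2 and 615 in control 3, and at 169 and 119 in the cadmium libraries. All 4 marker genes of other cell types (PTPRC, PECAM1, COL1A1 and PDGFRB) had reads in every library. PTPRC, a leukocyte gene, was at 1.89 in control 2, 144 in control 3 and 36.8 and 42.5 in the cadmium libraries, and PECAM1, an endothelial gene, at 160, 842, 686 and 641 in the same order. The part of such differences between the controls in the values below was not tested.

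MTF-1 is the metal-sensing transcription factor that turns on metallothionein genes through metal response elements, whose core reads TGCACNC or TGCGCNC. The promoters of the ZIP genes were therefore searched for this core on both strands, from 250 bases before to 50 bases after the RefSeq start (GRCh38.p14). Of 27305 promoters in the table, 29.3% held at least 1 core. The table matched 8 of the ZIP genes, which leaves SLC39A4 and SLC39A14 unmatched, and 2 of the 8 held a core, with 1 each in SLC39A3 and SLC39A6. SLC30A1, the gene of a zinc exporter of the plasma membrane, held 2, MT1X held 4 and MT2A held 8. No other metallothionein gene listed below was matched, so their promoters were not searched. Among the other matched SLC30 promoters, SLC30A2 held 3, SLC30A3 held 2, SLC30A10 held 0 and the rest held 0 or 1. At least 2 cores were present in 8.59% of all promoters, at least 4 in 0.593% and at least 8 in 0.022%. The sites below are shown because they set the ZIP promoters beside genes known to respond to metals. Capitals mark the core, each line reads 5′ to 3′ on the strand of the gene, and for SLC30A1 the core lies on the opposite strand.
SLC39A3 (chr19:2740188-2740214, minus strand, core starting 128 bases before the start): gcttggtggcTGCGCCCgccgctcagc
SLC39A6 (chr18:36129341-36129367, minus strand, 17 bases before the start): cccgcggcgcTGCGCGCggcggtaatt
SLC30A1 (chr1:211579194-211579220, minus strand, 49 bases before the start): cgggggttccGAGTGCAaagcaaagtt
MT1X (chr16:56682338-56682364, plus strand, 122 bases before the start): cacgggttgcTGCACCCggcccaggat
MT2A (chr16:56608520-56608546, plus strand, 54 bases before the start): gcggggctttTGCACTCgtcccggctc
No core was found in the windows of SLC39A1, SLC39A7, SLC39A8, SLC39A9, SLC39A10 or SLC39A13. A match is a run of letters and does not show that MTF-1 was bound there.

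To ask whether cadmium-treated cells had altered the RNA of their metal importers, all genes were tested with DESeq2. None of the 10 ZIP genes was called at an adjusted p-value below 0.1, in either direction. The background was 1.14% of the 19816 genes tested, of which 0.601% were higher and 0.535% were lower in cadmium. No ZIP gene had an unadjusted DESeq2 p-value below 0.05, against 6.92% of all tested genes. The edgeR quasi-likelihood test also called 0 of them, and 0 of 19241 genes overall. It gave 1 ZIP gene, SLC39A14, an unadjusted p-value below 0.05, against 7.39% of its tested genes, and limma-voom did the same, against 7.4%. The median log2 fold change was -0.15 over the ZIP genes and -0.03 over the 18871 tested genes whose mean reached 10. The groups did not overlap for 5 of the 10 ZIP genes, against 40.3% of all tested genes. Of these, 2 were higher in cadmium (SLC39A1 and SLC39A7), against 20.3% of all tested genes, and 3 were lower (SLC39A4, SLC39A6 and SLC39A14), against 19.9%.

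**Figure D1:**
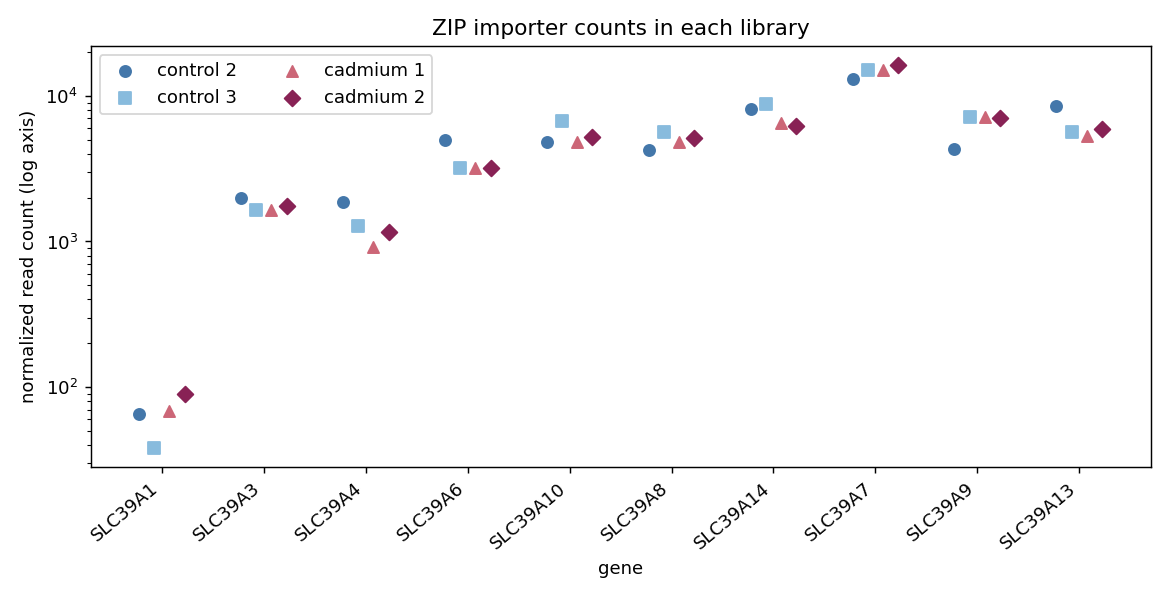
Normalized read count (log axis) of each ZIP gene in each of the 4 libraries, with circles and squares for the controls and triangles and diamonds for the cadmium libraries. In all 10 genes the cadmium points lie closer together than the control points. The counts of SLC39A1, 38.3 to 89.8, lie far below the rest but cover only part of its reads.

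The cadmium importers are described first. SLC39A14 (ENSG00000104635, chr8:22367278-22434129, hg38) had normalized counts of 8150 and 8790 in control 2 and control 3, and of 6547 and 6239 in cadmium 1 and cadmium 2. Both cadmium libraries lay below both controls, and taken 1 cadmium library against 1 control, the 4 log2 ratios ran from -0.49 to -0.32. DESeq2 put the log2 fold change at -0.41 (SE 0.24, 95% interval -0.88 to 0.07, adjusted p = 0.846), where SE is the standard error. In linear terms the level was 0.755 of control, with an interval from 0.543 to 1.05. The unadjusted p-value was 0.0946 with DESeq2, 0.0374 with edgeR and 0.0392 with limma-voom. SLC39A14 was the ZIP gene that DESeq2 called both without control 2 and without control 3, with adjusted p-values of 0.00406 and 0.0213. Those fits called 14.8% and 31.2% of all genes. In those fits the lone control is assumed to vary like the cadmium pair. Its log2 fold change stayed between -0.46 and -0.36 when any 1 library was left out.

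SLC39A8 (ENSG00000138821, chr4:102251080-102431258) showed the smallest difference of the 10 genes. The controls had 4214 and 5637 normalized counts and the cadmium libraries 4810 and 5136, so both cadmium libraries fell inside the range of the controls. The log2 fold change was 0.01 (SE 0.28, 95% interval -0.54 to 0.57, DESeq2 adjusted p = 1.00). In linear terms the interval ran from 0.689 to 1.48 times control, so a change within that range in either direction is not excluded by these libraries. Its sign turned with the control used, from -0.18 without control 2 to 0.23 without control 3. Per length, SLC39A8 was less abundant than SLC39A14 in every library. The ratio of their TPM values (reads per exon length, scaled to the same total in every library) was 0.421 and 0.522 in the controls and 0.598 and 0.670 in the cadmium libraries, which thus did not overlap. With 2 libraries against 2, the smallest two-sided p-value of an exact permutation test is 0.333, so this order could not pass a threshold. The summed TPM of the 2 genes was 121 and 151 in the controls and 119 and 114 in the cadmium libraries.

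The LIV-1 type ZIP proteins of the plasma membrane came next. SLC39A4 encodes the zinc importer of intestinal uptake, the one mutated in acrodermatitis enteropathica. SLC39A4 (ENSG00000147804, chr8:144409742-144416844) had normalized counts of 1869 and 1267 in control 2 and control 3 and of 912 and 1161 in cadmium 1 and cadmium 2. The groups did not overlap, although control 3 and cadmium 2 were close, at a log2 ratio of -0.13. The log2 fold change of -0.60 (SE 0.33, 95% interval -1.25 to 0.05, DESeq2 adjusted p = 0.793) was the most negative of the ZIP genes. It was -0.29 without control 2 and -0.86 without control 3, where the adjusted p-value was 2.27e-04.

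SLC39A6 (ENSG00000141424, chr18:36108531-36129385) encodes ZIP6, also called LIV-1, which was first found as an estrogen-induced gene in breast cancer cells. Control 2 stood alone at 4978 normalized counts, while control 3 had 3185, cadmium 1 had 3176 and cadmium 2 had 3177, so that the other 3 libraries were nearly level. The log2 fold change of -0.36 (SE 0.32, DESeq2 adjusted p = 1.00) became -0.01 without control 2 and -0.66 without control 3, where the adjusted p-value was 2.49e-05. The closely related SLC39A10 (ENSG00000196950, chr2:195575977-195737702), whose product ZIP10 can pair with ZIP6, showed the reverse picture among the controls. It had 4840 normalized counts in control 2 and 6752 in control 3, and 4844 and 5194 in the cadmium libraries. The fitted log2 fold change was -0.21 (SE 0.29, DESeq2 adjusted p = 1.00). Without control 2 it was -0.43 with an adjusted p-value of 0.0129, and without control 3 it was 0.04.

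SLC39A1 and SLC39A3 encode further importers of the plasma membrane. SLC39A3 (ENSG00000141873, chr19:2732204-2740028) had 1980 and 1635 normalized counts in the controls and 1645 and 1758 in the cadmium libraries, which fell inside the control range. Its log2 fold change was -0.09 (SE 0.27, 95% interval -0.62 to 0.44, DESeq2 adjusted p = 1.00), with 0.06 without control 2 and -0.23 without control 3. For SLC39A1 (ENSG00000143570, chr1:153959099-153968184) only 69, 36, 69 and 91 reads were assigned in control 2, control 3, cadmium 1 and cadmium 2. Of its 3388 exon bases, 60.8% are shared with the exons of a readthrough gene on the same strand (ENSG00000285779), which had 0 reads in every library. At the settings used for counting, a read that overlaps more than 1 gene is dropped. The count of SLC39A1 therefore covers only part of its reads, and its level cannot be set beside the other ZIP genes. For the reads that were kept, the log2 fold change was 0.61 (SE 0.58, 95% interval -0.53 to 1.75, DESeq2 adjusted p = 1.00). It was 1.05 without control 2 and 0.27 without control 3.

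Of the ZIP proteins that release zinc from inside the cell, ZIP7 in the endoplasmic reticulum membrane, encoded by SLC39A7, had by far the most RNA. SLC39A7 (ENSG00000112473, chr6:33200445-33204439) had 13021 and 15047 normalized counts in the controls and 15145 and 16266 in the cadmium libraries. Both cadmium libraries were above both controls, but cadmium 1 exceeded control 3 by a log2 ratio of only 0.01. The log2 fold change was 0.16 (SE 0.25, 95% interval -0.33 to 0.65, DESeq2 adjusted p = 1.00), and it was 0.06 without control 2 and 0.26 without control 3. Its exons share 7.77% of their bases with RXRB on the other strand, and strand was ignored in counting. SLC39A9 (ENSG00000029364, chr14:69398015-69462390), whose product ZIP9 is found in the Golgi and at the plasma membrane, had 4307 normalized counts in control 2 against 7211 in control 3, 7159 in cadmium 1 and 6996 in cadmium 2. SLC39A13 (ENSG00000165915, chr11:47407132-47416496), whose product ZIP13 serves connective tissue and is mutated in a form of Ehlers-Danlos syndrome, had 8559 in control 2 against 5647, 5262 and 5874 in the same order. In both genes control 2 stood apart, on the low side for SLC39A9 and on the high side for SLC39A13. Their log2 fold changes of 0.30 and -0.35 (DESeq2 adjusted p = 1.00 for each) shrank to -0.03 and -0.02 without control 2, and were 0.70 and -0.63 without control 3, where the adjusted p-values were 8.33e-07 and 3.45e-05.

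**Figure D2:**
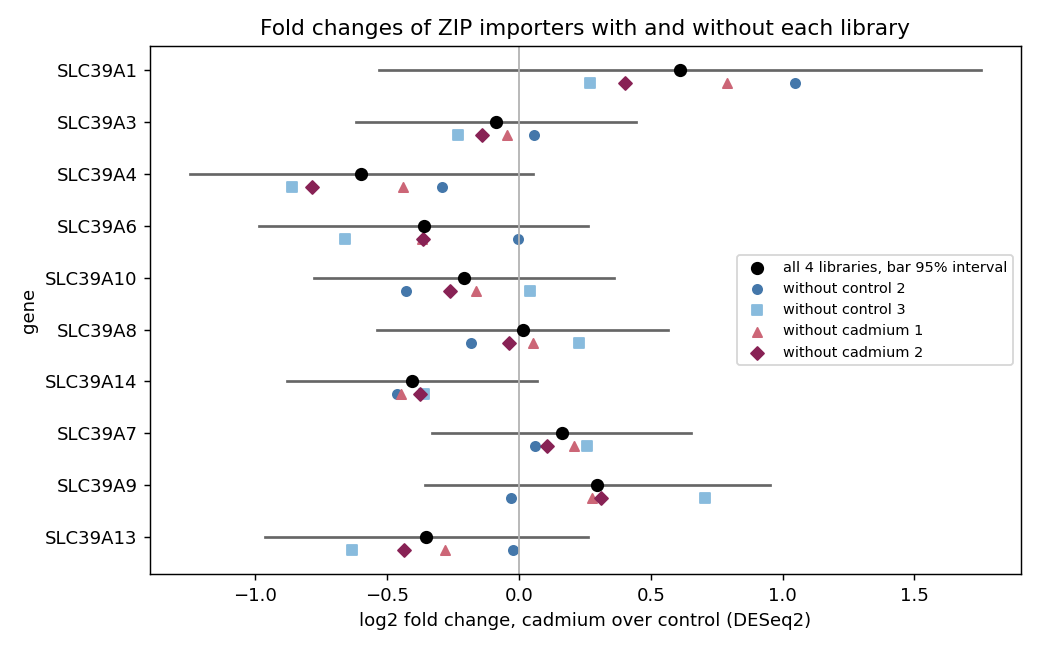
DESeq2 log2 fold change of each ZIP gene, cadmium over control, with all 4 libraries (black, bar for the 95% interval) and after leaving out each library (coloured symbols). Every interval includes 0, and leaving out a control moves most genes further than leaving out a cadmium library, with SLC39A14 staying between -0.46 and -0.36.

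Across the ZIP genes the spread between controls exceeded the difference between groups more often than not. For the 9 ZIP genes averaging 100 counts or more, the median absolute log2 ratio was 0.48 within the control pair, 0.10 within the cadmium pair and 0.30 between the group means. For all 12924 genes above that count these medians were 0.39, 0.11 and 0.22. The control pair differed more than the cadmium pair in 9 of the 9 ZIP genes and in 81.9% of all genes. It differed more than the group means did in 7 of the 9 ZIP genes and in 69.3% of all genes. The number of ZIP genes called followed the control in use. DESeq2 called 2 without control 2 (SLC39A10 and SLC39A14, both lower in cadmium) and 5 without control 3 (SLC39A4, SLC39A6, SLC39A13 and SLC39A14 lower, and SLC39A9 higher), while 14.8% and 31.2% of all genes were called in those fits. It called 0 without cadmium 1 and 0 without cadmium 2.

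To see how far these ratios were shared with the surrounding chromosome, each ZIP gene was set beside 40 neighbouring genes, 20 on each side, that averaged 100 normalized counts or more. The values are log2 ratios of the normalized count plus 1. Over all 12924 genes above that count, the median was -0.06 for control 3 over control 2 and -0.06 for cadmium over control. For SLC39A13 the neighbours moved as the gene did, with control 3 below control 2 by a median of -0.47 against -0.60 for the gene, and cadmium below control by -0.31 against -0.35. SLC39A9 and its neighbours were both higher in control 3 than in control 2, at 0.74 and 0.44, and both higher in cadmium, at 0.30 and 0.17. SLC39A6 had -0.64 between the controls where its neighbours had -0.36. On chromosome 6 the neighbours of SLC39A7 were higher in cadmium by a median of 0.26, and SLC39A7, at 0.16, was above 14 of the 40. On chromosome 8 the neighbours of SLC39A14 were lower by a median of -0.25, and 11 of the 40 were lower than SLC39A14 at -0.41.

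In 7 of the 9 ZIP genes the ratio between the controls had the sign of its neighbours' median. Subtracting that median reduced the absolute control ratio in 7 of 9, and its median from 0.48 to 0.20. SLC39A10 and SLC39A14 were the exceptions in both counts. Subtracting a median of opposite sign always raises the absolute ratio, so the second count adds little to the first. For SLC39A4 and SLC39A7 the neighbour medians were close to 0, at -0.04 and 0.02, so their sign says little. Both counts were made for the ZIP genes only, so there is no share of all genes to set them against. For SLC39A10 the neighbours had a median of -0.34 in control 3 relative to control 2, while SLC39A10 was higher by 0.48, above 37 of the 40. SLC39A14 also had the opposite sign to its neighbours between the controls, at 0.11 against -0.10, and subtraction raised its control ratio to 0.20. The cadmium over control ratio of SLC39A4, -0.60, was above 2 of its 40 neighbours, whose median was -0.16. Against control 3 alone it was above 11 of them, and against control 2 alone above 1. Relative to neighbours, the cadmium over control difference was -0.43 for SLC39A4, -0.19 for SLC39A6, -0.15 for SLC39A14, -0.10 for SLC39A7 and -0.04 for SLC39A13. It was -0.01 for SLC39A10, 0.07 for SLC39A3, 0.11 for SLC39A8, 0.13 for SLC39A9 and 0.65 for SLC39A1, whose count is partial. These values rest on the control used. Without control 2 and without control 3 in turn, the difference was -0.15 and -0.64 for SLC39A4, -0.27 and -0.03 for SLC39A14, -0.29 and -0.08 for SLC39A7, -0.05 and 0.28 for SLC39A9, -0.02 and -0.09 for SLC39A13, and -0.41 and 0.46 for SLC39A10. These are descriptions of 4 libraries, and no test was made of a gene against its neighbours.

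**Figure D3:**
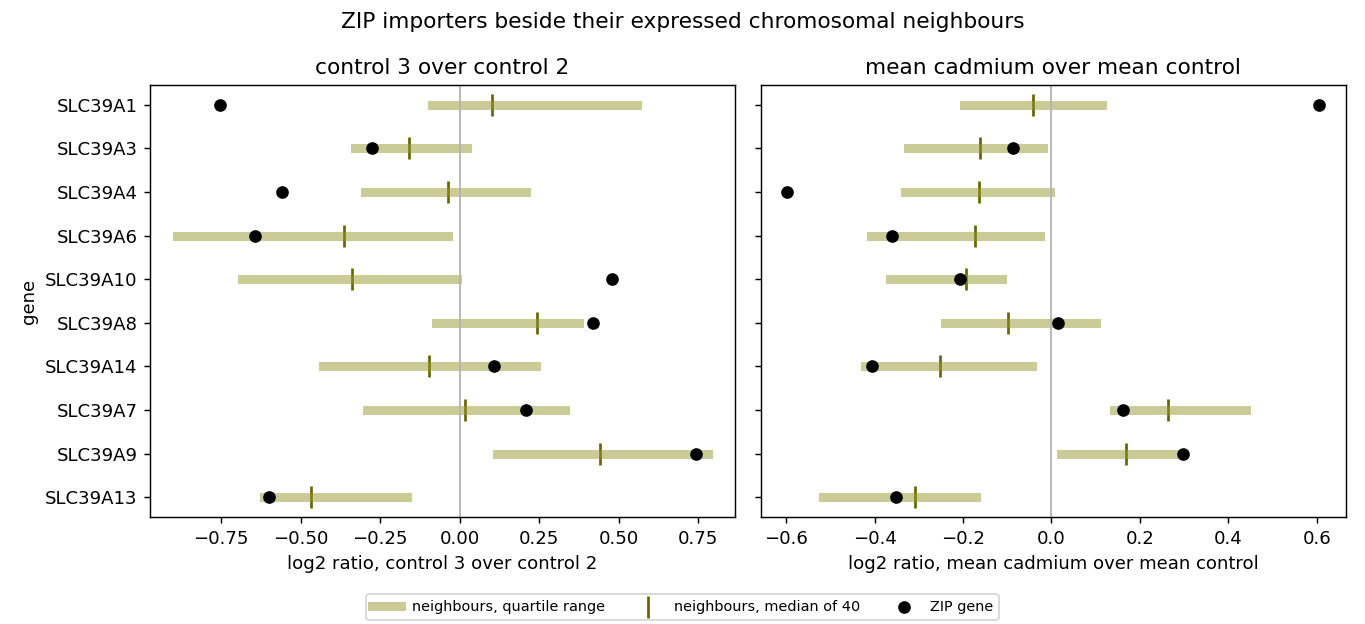
Log2 ratio of control 3 over control 2 (left) and of mean cadmium over mean control (right) for each ZIP gene (black) beside the median (tick) and quartile range (bar) of its 40 expressed neighbours. SLC39A13, SLC39A9 and SLC39A6 lie on the side of their neighbours in both panels, while SLC39A10 lies at 0.48 against a neighbour median of -0.34 between the controls.

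Levels per length were then compared between genes in TPM. SLC39A1 aside, SLC39A7 led with 332 and 414 TPM in the controls and 418 and 433 TPM in the cadmium libraries. Its lowest library was above the highest library of each ZIP gene other than SLC39A1. By mean over the 4 libraries SLC39A13 (90.3 to 135 TPM), SLC39A14 (68.3 to 99.5 TPM), SLC39A6, SLC39A9, SLC39A10 and SLC39A8 followed, and each of these overlapped the next in range. SLC39A3 came below them at 28.9 to 32.4 TPM and SLC39A4 below that at 14.4 to 27.2 TPM, both apart from their neighbours in the order. SLC39A1 had 0.884 to 2.01 TPM, or 2.86 to 6.49 TPM when only its unshared exon bases are counted as length. Its count covers only part of its reads, so it was given no place in this order.

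The summed level of the 10 genes was 842 and 934 TPM in the controls and 875 and 890 TPM in the cadmium libraries, which fell between the controls. SLC39A1 entered this sum with only part of its reads, so the sum and the shares below lack an unknown amount. SLC39A7 made up 39.4% and 44.3% of this pool in the controls and 47.8% and 48.6% in the cadmium libraries, so that its share was higher in both. SLC39A14 made up 10.2% and 10.7% in the controls and 8.52% and 7.68% in the cadmium libraries. The share of SLC39A8 was 4.28% and 5.56% in the controls, and 5.10% and 5.15% in the cadmium libraries lay between these.

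**Figure D4:**
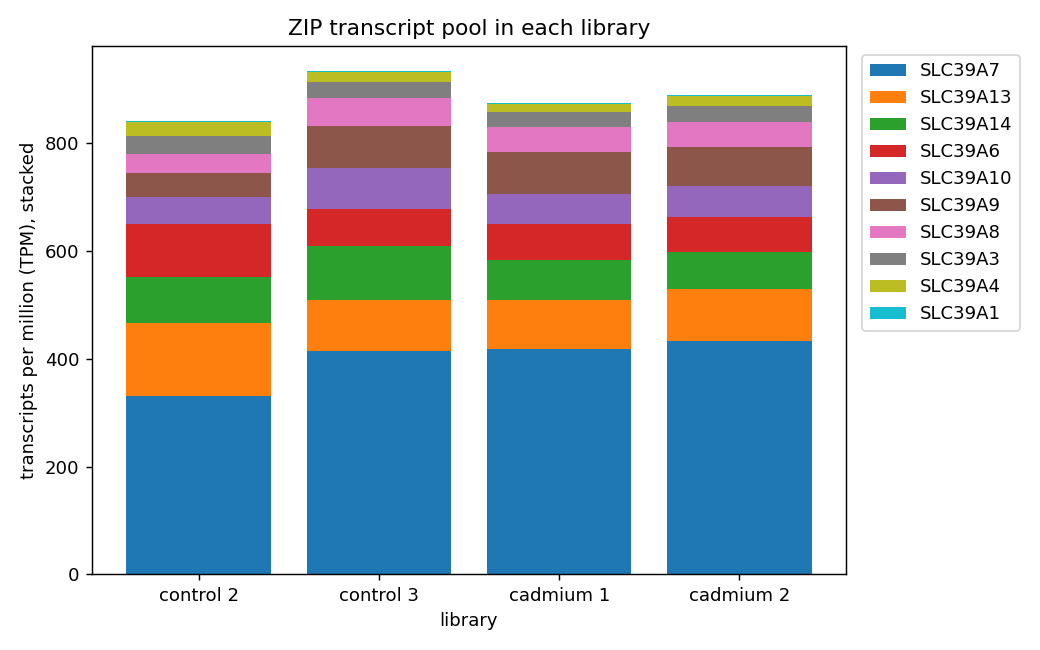
Stacked TPM values of the 10 ZIP genes in each library, starting at 0. The 4 columns reach 842, 934, 875 and 890 TPM, and SLC39A7 fills the largest part of each. SLC39A1, of which only part of the reads were counted, is too low to see.

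Other genes of zinc and cadmium handling were taken from lists. Among the remaining SLC39 genes, SLC39A12 had 0 reads in all libraries, which allows up to 3 reads in each, SLC39A2 had at most 3 and SLC39A5 had 6 to 24. SLC39A11, whose product ZIP11 is the most distant relative in the family, was expressed, and its libraries matched closely within groups. It had 873 and 861 normalized counts in the controls and 588 and 607 in the cadmium libraries (log2 fold change -0.54, SE 0.27). Its unadjusted p-value was 0.0496 with DESeq2 and 0.0446 with edgeR, but it was not called (DESeq2 adjusted p = 0.718). Of all tested genes, 6.92% with DESeq2 and 7.39% with edgeR had an unadjusted p-value below 0.05. Taken 1 cadmium library against 1 control, its log2 ratios ran from -0.57 to -0.50. Its 40 neighbours on chromosome 17 had a median log2 ratio of -0.07.

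None of the 10 SLC30 exporter genes was called. Of these, 8 averaged 10 normalized counts or more, and the rest had too few reads to be called. An unadjusted DESeq2 p-value below 0.05 was found for 2 (SLC30A1 and SLC30A10). The share of all genes below that p-value was 6.92%. Leaving out control 2 gave 1 call (SLC30A1), where 14.8% of all genes were called, and leaving out control 3 gave 3 (SLC30A1, SLC30A3 and SLC30A10), where 31.2% were. SLC30A1 had 2174 normalized counts in control 2 and 4616 in control 3, against 6566 and 7372 in the cadmium libraries. Both cadmium libraries were above both controls, and the controls differed from each other by a log2 ratio of 1.09. The log2 fold change was 1.04 (SE 0.40, DESeq2 adjusted p = 0.339), and none of its 40 neighbours had a higher cadmium over control ratio. The ratio of control 3 over control 2 also stood out, above 36 of the 40 neighbours, whose median was 0.07. SLC30A10, a manganese exporter gene, had 18.9 and 96.8 normalized counts in the controls against 164 and 150 in the cadmium libraries (DESeq2 adjusted p = 0.712). The log2 fold changes of SLC30A7 and SLC30A3 were 0.24 and -0.63 (DESeq2 adjusted p = 1.00 for each).

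Of 9 genes for zinc sensing and binding, 5 were called higher and 0 lower, against 0.601% of all genes called higher. All 5 were metallothioneins, MT1E, MT1F, MT1M, MT1X and MT2A, with log2 fold changes from 2.06 (MT2A) to 5.81 (MT1M). Reads mapping to more than 1 of these close paralogs were dropped in counting, so their counts can be too low. Only 7 of the 9 genes averaged 10 normalized counts or more. The rest fell below the filter of 7.69 and could not be called. MT1G was among the rest, with 0 normalized counts in both controls and 16.9 and 12.8 in the cadmium libraries (log2 fold change 6.33, SE 2.12). The edgeR test and limma-voom called 0 of the 9 genes, as they called no ZIP gene, although the unadjusted edgeR p-values of the 5 ran from 2.49e-04 (MT1X) to 0.00930 (MT1E). All 5 were also called when either control was left out, whereas 2 remained without cadmium 1 (MT1M and MT1X) and 1 without cadmium 2 (MT1X), fits in which 0.114% and 0.107% of all genes were called. MTF1 and MT1A had log2 fold changes of -0.28 and -0.07 (DESeq2 adjusted p = 1.00 for each). Without control 3, where 31.2% of all genes were called, the list had 7 calls, adding MT1G higher and MTF1 lower. The 95% intervals of the ZIP genes other than SLC39A1 reached up to 0.95 on the log2 scale, below the lowest fitted value of these metallothioneins, but the difference between the lists was not tested.

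Of 14 genes for other proposed routes of cadmium entry, 0 were called and 0 had an unadjusted DESeq2 p-value below 0.05. Only 8 of the 14 averaged 10 normalized counts or more. The rest fell below the filter of 7.69 and could not be called. Without control 2 there were 2 calls (STIM1 and TFRC), and without control 3 there were 2 (TRPM7 and TFRC), in fits that called 14.8% and 31.2% of all genes. SLC11A2, the gene of the divalent metal transporter DMT1, had 2125 and 2331 normalized counts in the controls and 2507 and 2441 in the cadmium libraries (log2 fold change 0.15, DESeq2 adjusted p = 1.00). TRPM7, a cation channel gene, had 957 in control 2 against 2334 in control 3, 2459 in cadmium 1 and 2119 in cadmium 2. STIM1, which opens store-operated calcium channels, was at 5190 and 5466 in the controls and at 4295 and 4358 in the cadmium libraries (log2 fold change -0.30, DESeq2 adjusted p = 0.983). CACNA1H, a calcium channel gene, had at most 36.2 normalized counts in a library. TFRC, named above for both fits that left out a control, had opposite directions in them. Its controls lay far apart, at 28559 and 9790 normalized counts, and the cadmium libraries fell between these, at 22992 and 22830. TFRC was thus lower than control 2 but higher than control 3, and its log2 fold change with all libraries was 0.26 (SE 0.47).

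**Figure D5:**
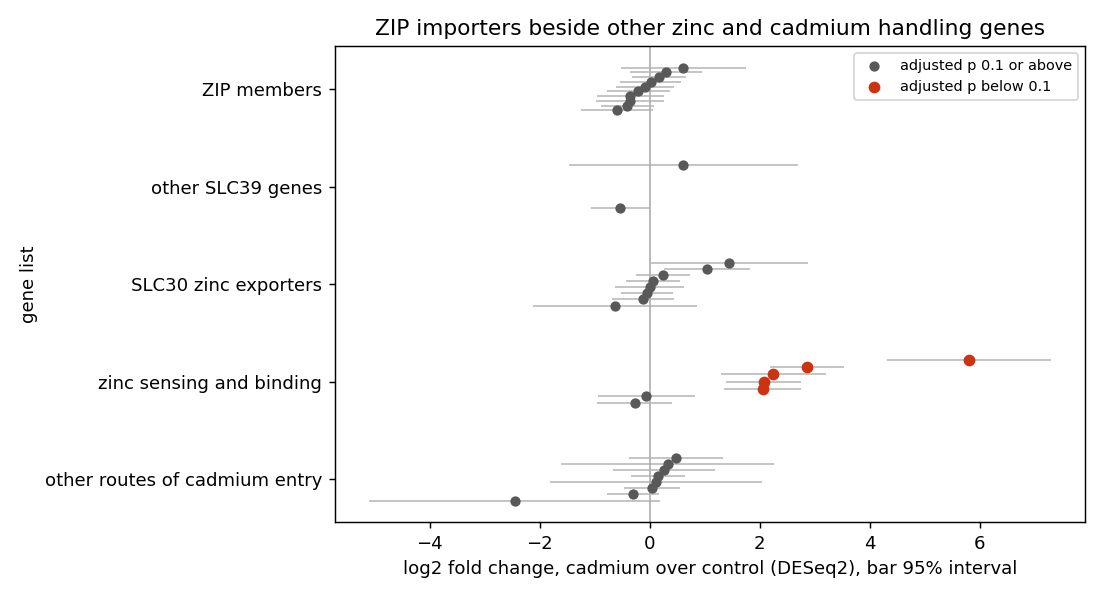
DESeq2 log2 fold change, cadmium over control, with 95% interval, for genes averaging 10 normalized counts or more in 5 lists. The 10 ZIP genes lie between -0.60 and 0.61 with no call (grey), while 5 metallothioneins (red) lie at 2.06 or above.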

How the data were processed

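The deposited values were raw read counts per gene. The study's methods and the header line say that the authors removed adaptors (bbduk), mapped reads to hg38 (HISAT2) and counted them over Ensembl genes with featureCounts 2.0.1 at default settings. Strand was thus ignored, reads mapping to several places or genes were dropped, and mates were counted singly (70.6% to 71.5% of counts from 1 to 20 were even). A count overstates the number of fragments, and limits on counts cover counting error only. Symbols matched 61369 of 61541 genes.

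Groups came from the sample labels. The control columns carry numbers 2 and 3 while the control labels are numbered 1 and 2, so these columns were assigned to the group only. Groups were compared with DESeq2 1.42.0 under R 4.3.3 (group as the single factor, median-of-ratios size factors, two-sided Wald test, Benjamini-Hochberg adjustment over all genes after removal of genes with a mean below 7.69, threshold 0.1), the tool of the study. Alternatives were edgeR 4.0.16, limma 3.58.1 (voom), DESeq2 with TMM or upper-quartile factors, other count filters, halved counts, a threshold of 0.05 and leaving out each library. Normalized counts are counts divided by size factors. TPM used the exon lengths of the table. Promoter sequences came from RefSeq (GRCh38.p14), and gene positions are those of the table. Plots used matplotlib 3.10.9. All 10 ZIP genes were named. From the other lists of metal genes every called gene was named, and up to 4 more by lowest p-value among those averaging 10 normalized counts. TFRC, MT1G and the cell type markers were named after their values were seen. The ZIP genes and lists were chosen with earlier results of these data known. The fits were also run on simulated counts that had the same spread in both groups, unlike these libraries. That run does not bear on the results above.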

Additional observations from a re-analysis of the deposited data

How the results depend on the processing

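No paired analysis was possible because only 1 number is shared between the column names of the controls (2 and 3) and of cadmium (1 and 2), so the replicate block was not run. Under the 8 alternatives that kept all libraries, the 80 log2 fold changes of the ZIP genes kept their direction and none passed its threshold (lowest adjusted p-value 0.669, with limma-voom). The number of ZIP genes called ranged from 0 to 5 when 1 library was left out. The direction turned in 4 genes, with log2 fold changes from -0.23 to 0.055 for SLC39A3, -0.18 to 0.23 for SLC39A8, -0.029 to 0.70 for SLC39A9 and -0.43 to 0.041 for SLC39A10. The median over the ZIP genes of the cadmium over control ratio relative to neighbours was -0.029 with 40 neighbours, 0.033 with 20 and -0.027 with 80, so its sign is not settled. The share of SLC39A7 in the ZIP pool was higher in cadmium by 6.40 percentage points, by 6.48 with all 14 SLC39 genes in the pool and by 6.34 with unshared exon length, an alternative chosen after seeing the data, and by 3.95 to 8.84 when 1 library was left out. Changes inside the intervals given are not excluded by these libraries. The intervals are not limits of detection.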
